A study of Rattus norvegicus with 9 samples.

Results

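Cathepsins are the proteases of the lysosome, and 9 of their genes (Ctsa, Ctsb, Ctsc, Ctsd, Ctsh, Ctsk, Ctsl, Ctss and Ctsz) were followed in fibroblasts of the rat synovium, the tissue that lines joints. They were taken by gene symbol from a table of 17298 genes, and 9 of 9 were found and passed the filter of a mean of at least 1 FPKM (read fragments divided by the transcript's length and the total mapped in that library), which left 11372 genes for testing. RNA was sequenced in 9 libraries of wild type cells, 3 in each of 3 groups: routine culture without IL-1β (control), routine culture with the inflammatory cytokine IL-1β, and IL-1β stimulation followed by culture below dermal fibroblasts held in the insert of a transwell (co-culture). Neither the dose, the duration nor the age of the animals is given in the labels, and each co-culture library had IL-1β. The labels mention no insert for the control and IL-1β groups, and the co-culture followed the IL-1β stimulation. In the co-culture differences, parts of the insert, of the dermal cells and of any difference in time since IL-1β cannot be told apart. Separate cultures or animals behind the replicates are not named in the labels. The p-values therefore rest on a spread between libraries that may be technical.

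Most cathepsins are made as inactive proenzymes, tagged with mannose 6-phosphate, carried to the lysosome and activated there at acid pH. Ctsb, Ctsc, Ctsh, Ctsk, Ctsl, Ctss and Ctsz encode cysteine proteases of the papain family, Ctsd an aspartic protease and Ctsa a serine carboxypeptidase that also protects lysosomal glycosidases. In joint disease the family is known for breaking down collagen and proteoglycan fragments, and part of it is secreted. Cystatins are the main inhibitors of its cysteine proteases.

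Fibroblast markers were abundant: 13 of 13 fibroblast markers were tested, and their summed level was 18100 to 18400 FPKM in control, 16530 to 17270 FPKM with IL-1β and 16840 to 17690 FPKM in co-culture. Within that sum 7 markers were higher and 5 lower with IL-1β (limma adjusted p under 0.05). Of all tested genes 20.5% were higher and 31.2% lower. The changed markers included the decorin gene Dcn, from 640.9 to 3112 mean FPKM, and the vimentin gene Vim, from 4902 to 2114. Markers of macrophages and leukocytes, cells that also make cathepsins, were low. Their 18 genes summed to 32.6 to 33.9 FPKM in control, 44.4 to 51.2 FPKM with IL-1β and 32.7 to 35.7 FPKM in co-culture, and 13 of the 18 fell under the filter. Ptprc, the pan-leukocyte phosphatase gene, had 0.09 to 0.13 FPKM in control, 0.04 to 0.08 with IL-1β and 0.04 to 0.09 in co-culture. The complement gene C1qc was listed at 0 in each library but 1. Csf1r (0.337 mean FPKM in control and 0.313 with IL-1β), C1qa, Cd74, Spi1 and Laptm5 overlapped between control and IL-1β. Some other markers under the filter were higher with IL-1β. Cd163 had 0.02 to 0.05 FPKM in control, 0.35 to 0.54 with IL-1β and 0.1 to 0.28 in co-culture, and Mrc1 had 0.51 to 0.84, 1.29 to 1.73 and 0.71 to 0.85 in the same order. Adgre1 (0.46 to 0.52, 0.94 to 1.54 and 0.85 to 0.94) and Itgam (0.26 to 0.32, 0.55 to 0.76 and 0.18 to 0.44) were also above control with IL-1β, without overlap and untested, and had lower means in co-culture, as Ctsc and Ctsh did. Of the 5 tested, Cd14 and Cd68 rose with IL-1β (13.5 to 22.7 and 2.3 to 4.77 mean FPKM) and Lyz2 fell (10.65 to 7.99 mean FPKM). Tyrobp and Fcer1g had higher means too (1.49 to 2.15 and 1.55 to 3.11 FPKM) but did not pass (limma adjusted p = 0.14 and 0.053). In co-culture against IL-1β, 0 of the 5 were higher and 3 lower, where 33.3% of all genes were higher and 16.7% lower. The lower ones were Cd14, Cd68 and Fcer1g, at 15.85, 2.19 and 1.5 mean FPKM in co-culture (limma adjusted p = 3.2e-06, 0.00041 and 0.041). Because these are bulk samples, fewer cells of a type and less RNA per cell cannot be told apart, and the part of such cells in the changes of Ctsc, Ctsh and Ctsb was not tested.

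In control cells the family spanned levels from 1388 to 3.37 mean FPKM. Ctsl was the highest, at rank 83 of the 11372 genes, followed by Ctsb (648.9 ± 10.2 FPKM, SD, n = 3), Ctsd (392.7 ± 3.82), Ctsa (164 ± 1.13), Ctsh (132.4 ± 4.26), Ctsk (58.2 ± 1.9), Ctsz (8.74 ± 0.21), Ctsc (4.48 ± 0.006) and Ctss (3.37 ± 0.68 FPKM). No neighbours in this order overlapped across the 3 control libraries. Ctsk, the collagen-degrading enzyme of osteoclasts, was thus well expressed in these cultures, whereas Ctss, typical of antigen-presenting cells, was close to the filter. The tested osteoclast markers Acp5, Nfatc1 and Itgb3 had 4.58, 4.8 and 2.54 mean FPKM in control. The osteoclast marker Mmp9 had 0.59 in control and 621 with IL-1β. A part of osteoclasts in the Ctsk level was not tested. Ctsl, Ctsb and Ctsd together held 86.8% of the summed cathepsin FPKM. The comparison of levels between genes assumes that each gene's reads were assigned equally well, which was not tested.

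The stretches before the transcription start are shown for 4 members: Ctsc and Ctsh, with the largest rises with IL-1β, Ctsl, with the largest fall, and Ctsd, which holds the element of the lysosomal gene programme. They are RefSeq sequences of build GRCr8, matched by gene ID, and windows were found for 8 of the 9 members (none for Ctsb). Each is the 250 bases before the start, 5′ to 3′ on the gene's strand, with matches to the searched motifs in capitals.
Ctsc upstream window, chr1:151440799-151441048, plus strand: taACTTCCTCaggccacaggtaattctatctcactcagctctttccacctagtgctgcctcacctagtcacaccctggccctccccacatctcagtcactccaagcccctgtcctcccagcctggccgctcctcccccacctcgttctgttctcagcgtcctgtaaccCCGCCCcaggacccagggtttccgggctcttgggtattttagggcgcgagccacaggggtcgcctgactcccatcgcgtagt
Ctsh upstream window, chr8:99488506-99488755, plus strand: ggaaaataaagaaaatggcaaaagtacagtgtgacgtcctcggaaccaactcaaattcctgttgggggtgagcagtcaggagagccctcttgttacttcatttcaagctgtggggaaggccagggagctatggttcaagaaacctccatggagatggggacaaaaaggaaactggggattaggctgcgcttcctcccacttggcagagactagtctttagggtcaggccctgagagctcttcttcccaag
Ctsl upstream window, chr17:769854-770103, plus strand: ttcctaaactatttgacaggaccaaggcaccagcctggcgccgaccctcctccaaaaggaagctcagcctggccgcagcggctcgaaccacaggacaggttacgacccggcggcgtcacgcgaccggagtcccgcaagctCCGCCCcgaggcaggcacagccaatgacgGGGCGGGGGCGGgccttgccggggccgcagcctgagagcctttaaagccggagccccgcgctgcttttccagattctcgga
Ctsd upstream window, chr1:206968822-206969071, minus strand: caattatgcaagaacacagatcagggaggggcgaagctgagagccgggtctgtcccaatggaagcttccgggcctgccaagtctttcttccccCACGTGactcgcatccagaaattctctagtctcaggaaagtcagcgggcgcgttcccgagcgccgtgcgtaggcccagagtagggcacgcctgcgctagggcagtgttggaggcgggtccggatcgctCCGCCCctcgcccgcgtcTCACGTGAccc

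The motifs were searched on both strands of windows of 300 bases that add the 50 bases after the start. TCACGTGA, the CLEAR element bound by TFEB and its relatives, was found in 1 of the 8 members' windows, that of Ctsd, 11 bases before the start. Among the windows of 9087 tested genes, 1.91% held it. Its core CACGTG, which TCACGTGA contains, occurred once more in the Ctsd window, 157 bases before the start, and in 9.85% of all tested genes' windows. The GC box GGGCGG was found in 6 of 8 members, with 3 copies each in Ctsl and Ctsz, against 64.9% of tested genes. The G and C content of the Ctsl window was 66.7% and that of the Ctsz window 63.7%, against a median of 61.3% over tested genes. The ETS and PU.1 motif GAGGAAGT lay in Ctsc (248 bases before the start) and Ctss, and in 2.43% of tested genes, and the interferon response motif (ISRE) in Ctss alone among the members, and in 2.91% of tested genes. The AP-1 letters TGANTCA (4.59% of tested genes) and the NF-kB consensus (0.462%) were in none of the 8 windows, which says only that these letters are not there.

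IL-1β moved the cathepsins in opposite directions. Of the 9 members, 6 passed the threshold of a limma adjusted p under 0.05, 3 higher (Ctsc, Ctsh and Ctsb) and 3 lower (Ctsl, Ctsk and Ctsd), in a comparison in which 51.7% of all tested genes passed, 20.5% higher and 31.2% lower. The members had a median log2 fold change of 0.006, against -0.044 for all genes. Their count is close to the background share. Ctsc, Ctsh and Ctsl changed most, by 2.66-fold, 2.07-fold and 0.645-fold of mean FPKM, while the other calls were small. Folds are ratios of mean FPKM. Each log2 fold change was computed from log2(FPKM + 1) and is given with its standard error.

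Ctsc encodes dipeptidyl peptidase I, which activates the granule proteases of neutrophils and mast cells. It read 4.47, 4.48 and 4.48 FPKM in the control libraries and 12.25, 12.37 and 11.15 FPKM with IL-1β. The groups lay far apart, a 2.66-fold rise (log2 fold change 1.24 ± 0.06, limma adjusted p = 7.2e-09). Ctsh encodes an aminopeptidase known for processing small peptides and surfactant proteins. It stood at 128.2, 136.72 and 132.42 FPKM in control and at 270.43, 272.2 and 278.13 FPKM with IL-1β. Each IL-1β library was above each control library, 2.07-fold on average (log2 fold change 1.04 ± 0.03, adjusted p = 1e-10).

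Ctsb, a broad endopeptidase and carboxypeptidase of the lysosome, had 653.02, 656.32 and 637.28 FPKM in control and 777.7, 804.78 and 795.05 FPKM with IL-1β. The groups did not overlap, and the mean rose 1.22-fold (log2 fold change 0.29 ± 0.03, adjusted p = 3.8e-06). Ctsl, a potent endopeptidase that also cleaves elastin and collagens, went the other way. Its control libraries had 1353.33, 1403.57 and 1405.95 FPKM and its IL-1β libraries 866.05, 909.29 and 911.52 FPKM. The mean fell by 35.5% without overlap (log2 fold change -0.63 ± 0.03, adjusted p = 1.9e-08).

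The falls of Ctsd and Ctsk were small and depended on the settings. Ctsd, the main aspartic protease, went from 391.58, 397 and 389.63 FPKM to 380.58, 366.39 and 365.02 FPKM (log2 fold change -0.08 ± 0.03, adjusted p = 0.022). Ctsk went from 57.33, 60.32 and 56.8 FPKM to 51.18, 55.66 and 51 FPKM (log2 fold change -0.14 ± 0.04, adjusted p = 0.015). Both directions held but neither call did after median-of-ratios scaling, with adjusted p = 0.37 for Ctsd and 0.1 for Ctsk. Without 1 library the Ctsd call was lost for control replicates 1 and 2 and IL-1β replicates 2 and 3 (adjusted p 0.053 to 0.077), and the Ctsk call for control replicate 2 and IL-1β replicates 1 and 3 (adjusted p 0.052 to 0.063).

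Ctsa, Ctsz and Ctss did not pass with IL-1β. Ctsa had 162.86, 164.1 and 165.12 FPKM in control and 167.74, 168.86 and 157.72 FPKM with IL-1β, so that IL-1β replicate 3 lay below each control and the others above (log2 fold change 0.006, 95% interval -0.074 to 0.085). Ctsz, a carboxypeptidase, had 8.94, 8.53 and 8.74 FPKM and 9.49, 9.01 and 9.11 FPKM (0.07, interval -0.09 to 0.23). Ctss had 2.89, 3.07 and 4.15 FPKM and 2.86, 3.89 and 2.28 FPKM, with interleaved libraries (-0.13, interval -0.47 to 0.2). The interval of Ctss is the widest of the family and holds falls of up to 0.47 as well as no change. Ctsk and Ctss lie close together on rat chromosome 2, with 1 annotated protein-coding locus between them in GRCr8.

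**Figure D1:**
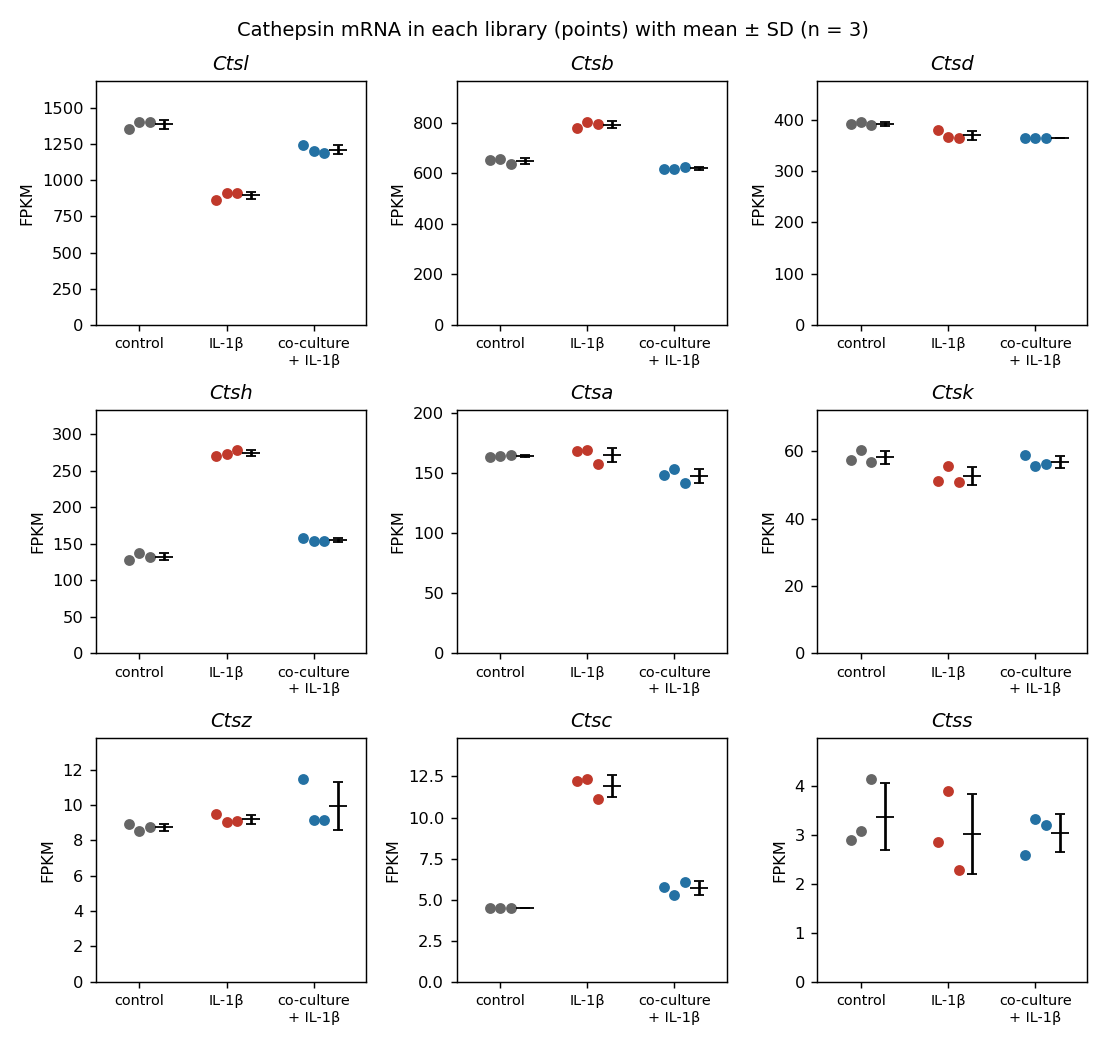
FPKM of each cathepsin (vertical axes from 0, scaled for each gene) in the 3 control, 3 IL-1β and 3 co-culture libraries as points, with mean ± SD (n = 3) in black. Ctsh and Ctsc are highest with IL-1β, at 270 to 278 and 11.15 to 12.37 FPKM, Ctsl is lowest there, at 866 to 912 FPKM, and the Ctss libraries of the 3 groups overlap.

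Co-culture with dermal fibroblasts was next set against IL-1β alone. Of the 9 members 6 passed, 2 higher (Ctsl and Ctsk) and 4 lower (Ctsc, Ctsh, Ctsb and Ctsa), where 50% of all tested genes passed, 33.3% higher and 16.7% lower. The members' median log2 fold change was -0.021, against 0.062 for all genes. The split of calls over all genes moved with the scaling: higher genes made up 66.6% of the calls as deposited and 50.4% after median-of-ratios scaling, and with IL-1β against control 39.7% and 51.4%. This comparison shares the IL-1β libraries with the first, so a shift of those libraries enters both with opposite sign.

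In co-culture Ctsc was at 5.76, 5.26 and 6.08 FPKM, 2.09-fold below IL-1β alone (log2 fold change -0.95 ± 0.06, limma adjusted p = 1.3e-07). Ctsh was at 157.99, 153.12 and 153.54 FPKM, 1.77-fold below (log2 fold change -0.82 ± 0.03, adjusted p = 1.7e-09). Ctsb was at 617.33, 617.09 and 626.3 FPKM, below each IL-1β library and also below each control library (log2 fold change against IL-1β -0.35 ± 0.03, adjusted p = 9.7e-07). Ctsl was at 1246.56, 1199.9 and 1186.54 FPKM, 1.35-fold above IL-1β alone without overlap (log2 fold change 0.43 ± 0.03, adjusted p = 8.8e-07). In these 4 genes the co-culture libraries kept clear of the IL-1β libraries.

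Ctsa, which had not passed with IL-1β, was lower in co-culture, at 147.8, 152.98 and 141.4 FPKM (log2 fold change -0.16 ± 0.04, adjusted p = 0.0034). All 3 libraries lay below the lowest IL-1β library and the lowest control library. Ctsk was at 58.96, 55.55 and 56.14 FPKM, overlapping the second IL-1β library (log2 fold change 0.11 ± 0.04, adjusted p = 0.046). Its call held under 6 of 18 alternative settings, with adjusted p from 0.012 to 0.42. Without 1 library it was lost for control replicates 1 and 3, IL-1β replicates 1 and 3 and co-culture replicates 1, 2 and 3. Ctsd stayed at 365.92, 365.01 and 365.06 FPKM (-0.02, 95% interval -0.08 to 0.04, adjusted p = 0.56), but passed as lower after median-of-ratios scaling (adjusted p = 0.022). Ctsz was at 11.49, 9.13 and 9.15 FPKM, the first library standing above the other libraries of all groups, and Ctss at 2.59, 3.32 and 3.2 FPKM.

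Against control, 5 of the 9 members passed in co-culture, 2 higher (Ctsc and Ctsh) and 3 lower (Ctsl, Ctsa and Ctsd), where 20.3% of all tested genes passed, 12.4% higher and 7.91% lower. Of these calls 61% were higher, and 46.4% after quantile normalization. The sizes among the members were small. Ctsc was 1.27-fold higher (log2 fold change 0.29 ± 0.06, limma adjusted p = 0.0046) and Ctsh 1.17-fold higher (0.22 ± 0.03 with adjusted p = 0.00036). Ctsl was below control by a log2 fold change of -0.2 ± 0.03 (adjusted p = 0.0016), Ctsa by -0.15 ± 0.04 (adjusted p = 0.011) and Ctsd by -0.1 ± 0.03 (adjusted p = 0.019). The Ctsd call was lost without control replicate 1 or 2 or co-culture replicate 2 (adjusted p 0.055 to 0.071). Ctsb did not pass (-0.07 ± 0.03, adjusted p = 0.12), but did after quantile normalization (adjusted p = 0.013).

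As a description, since the differences share the control libraries, the share of the IL-1β change left in co-culture was 31.1% for Ctsl, 23.4% for Ctsc and 21.6% for Ctsh, and -22.5% for Ctsb, whose co-culture level lay on the far side of control. For Ctsd it was 125% and for Ctsk 21.9%, from log2 fold changes with IL-1β of only -0.08 ± 0.03 and -0.14 ± 0.04. Ctsh was above Ctsa with IL-1β and in co-culture, the reverse of their order in control, and the ranges of the 2 genes did not overlap within any group.

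**Figure D2:**
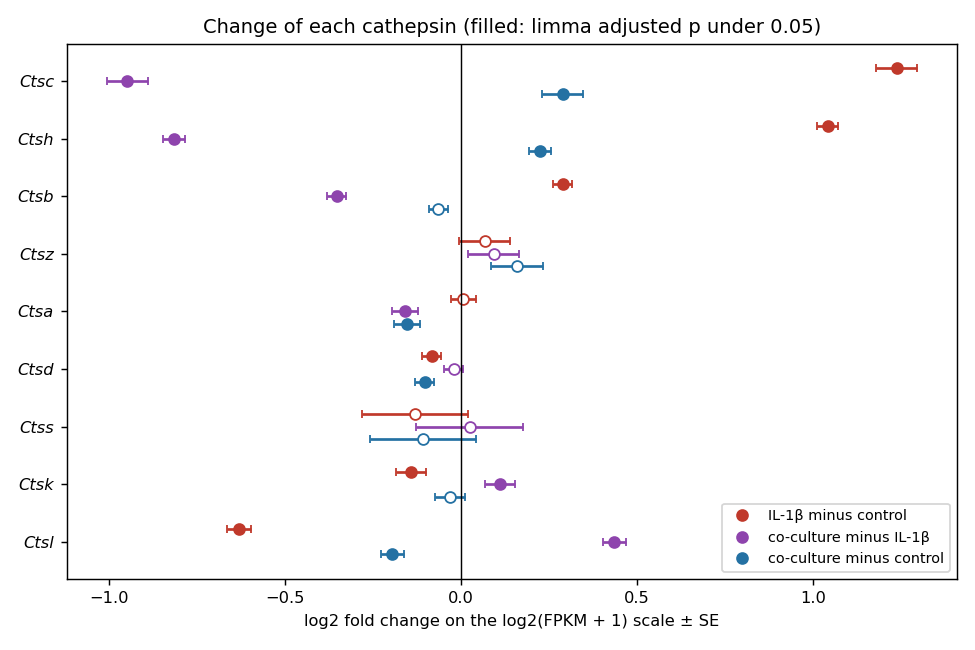
Log2 fold change ± SE (horizontal axis, log2(FPKM + 1) scale) of each cathepsin in the 3 comparisons, filled where the limma adjusted p was under 0.05. Ctsc, Ctsh and Ctsb lie right of 0 with IL-1β and left of 0 for co-culture against IL-1β, Ctsl shows the opposite, and Ctsz and Ctss have open points only.

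The make-up of cathepsin mRNA differed between the groups. The summed FPKM of the 9 genes was 2800 ± 35.9 (SD, n = 3) in control, 2574 ± 32.7 with IL-1β and 2574 ± 35.3 in co-culture. Such sums depend on the scaling of the libraries. As a share of all FPKM in a library the means were 0.408, 0.352 and 0.36% in the same order. The median-of-ratios size factors, not applied to these sums, were 1.008 to 1.011, 0.969 to 0.982 and 1.018 to 1.023. Ctsl made up 49, 49.5 and 50.1% of the sum in the control libraries, 34.1, 34.9 and 35.3% with IL-1β and 47.7, 46.9 and 46.6% in co-culture. Ctsb went from 23.2 ± 0.46% to 30.8 ± 0.14% and 24.1 ± 0.49%, and Ctsh from 4.73 ± 0.09% to 10.6 ± 0.16% and 6.02 ± 0.03%. Without Ctsl, the sum of the remaining 8 genes was higher with IL-1β, at 1678 ± 13 FPKM, than in control (1413 ± 16.2) or co-culture (1363 ± 3.87).

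Ratios inside a library do not depend on how it was scaled. There were 2.07, 2.14 and 2.21 Ctsl per Ctsb FPKM in control, 1.11, 1.13 and 1.15 with IL-1β and 2.02, 1.94 and 1.89 in co-culture. For Ctsl over Ctsh the group means were 10.5 ± 0.19, 3.27 ± 0.07 and 7.82 ± 0.08. Both ratios were chosen after the values were seen and are given without a test. The 7 cysteine cathepsins over Cst3, the gene of the secreted inhibitor cystatin C, gave 8.69, 8.82 and 8.53 in control, 7.74, 7.8 and 7.66 with IL-1β and 7.9, 7.95 and 8.35 in co-culture. The groups did not overlap in any pair, and the exact two-sided permutation test gave p = 0.1, the smallest that 3 against 3 libraries allow (adjusted p = 0.2 over 6 ratio tests), for each of the 3 pairs. Ctss over Ctsk, the 2 nearby genes, was 0.058 ± 0.013, 0.057 ± 0.013 and 0.054 ± 0.008 in the same order (exact permutation p of 0.7 to 0.9).

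**Figure D3:**
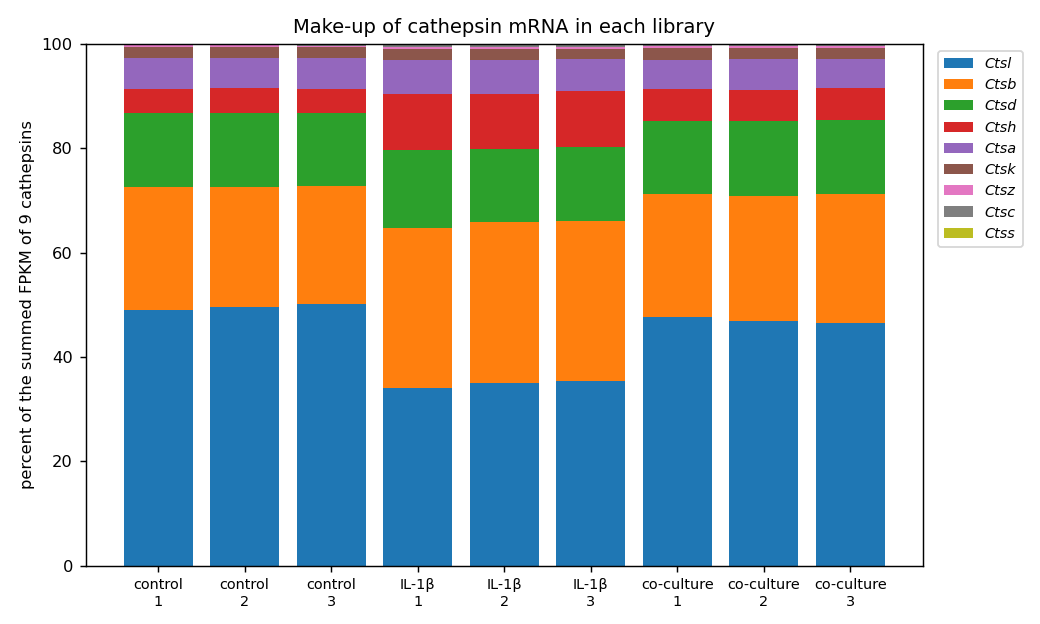
Percent of the summed FPKM of the 9 cathepsins (vertical axis, stacked bars) in each of the 9 libraries. Ctsl makes up 49 to 50.1% in control, 34.1 to 35.3% with IL-1β and 46.6 to 47.7% in co-culture, and the Ctsb and Ctsh segments are widest with IL-1β.

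Across the 9 libraries, which fall into 3 groups, the log2(FPKM + 1) values of Ctsc and Ctsh had a Pearson r of 0.992 and those of Ctsl with them -0.987 and -0.981. These are descriptions over libraries that share their treatment. With the 9 members and rows with placeholder names left out, 102 tested genes had an r above 0.99 with Ctsc and 66 with Ctsl. The 3 genes most like Ctsc were Ntn4 (netrin 4, r = 0.9974), Vps37c (a subunit of the endosomal ESCRT-I complex, r = 0.9972, left aside a second row with identical values) and LOC103693323 (r = 0.9969). Those most like Ctsl were Plce1 (a phospholipase C, r = 0.998), Ftl1 (ferritin light chain, r = 0.9968) and Hapln1 (a link protein of cartilage proteoglycan, r = 0.996). Ftl1 had 3701 mean FPKM in control, 2131 with IL-1β and 3145 in co-culture.

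Among cathepsin genes outside the 9, Ctsf, a further cysteine protease, moved like Ctsb. It had 35.15, 39.03 and 37.86 FPKM in control, 47.64, 44.09 and 48.34 FPKM with IL-1β and 37.09, 35.67 and 36.52 FPKM in co-culture (log2 fold change with IL-1β 0.32 ± 0.05, limma adjusted p = 0.00014, and in co-culture against IL-1β -0.35 ± 0.05, adjusted p = 7.7e-05). Ctso lay at 2.54 to 3.62 FPKM and did not pass in any comparison. Tinagl1, a papain-like protein without protease activity, rose with IL-1β from 3.7 to 4.63 mean FPKM (adjusted p = 0.014) and stayed at 4.65. Ctsw was at 0.06 to 0.43 FPKM and Ctse at 0 to 0.07 FPKM, both under the filter. In all 5 of the 13 listed genes were found in the table and 3 tested.

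Of 8 inhibitor genes 1 was higher and 2 lower with IL-1β, where 20.5% of all genes were higher and 31.2% lower, and 3 were higher and 1 lower in co-culture against IL-1β, where 33.3% and 16.7% were. Cst3 stayed at 258.5, 263.6 and 255.7 mean FPKM in control, IL-1β and co-culture and passed in none of the comparisons, and Cstb, the gene of the intracellular cystatin B, was at 308.6, 300.1 and 274.2. Cst6, the gene of the secreted cystatin E/M, had 1.47 to 1.88 FPKM in control, 1.94 to 2.09 with IL-1β and 2.98 to 3.13 in co-culture, where it was higher than with IL-1β (log2 fold change 0.43 ± 0.07, limma adjusted p = 0.00036) and than in control (0.61 ± 0.07, adjusted p = 1e-04). Serpinb6, an intracellular serpin gene, fell with IL-1β from 174.5 to 158.6 mean FPKM (adjusted p = 0.0046) and was at 186.8 in co-culture (adjusted p = 0.00012 against IL-1β). The gene that rose, Serping1, encodes the inhibitor of complement C1 and kallikrein rather than of cathepsins (26.1 to 68.7 mean FPKM). Serpinb9, an inhibitor of granzyme B, fell from 9.58 to 8.1 and was at 12.57 in co-culture (adjusted p = 4.4e-06 against IL-1β).

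Genes listed for the processing and sorting of lysosomal proteins, not all of them particular to cathepsins, changed in both directions. Of 16 tested, 3 were higher and 6 lower with IL-1β, with a median log2 fold change of -0.017, and 4 were higher and 3 lower in co-culture against IL-1β. After median-of-ratios scaling 3 were lower with IL-1β. The counts with IL-1β lie near the shares of all genes, 20.5% higher and 31.2% lower. In co-culture against IL-1β 33.3% of all genes were higher and 16.7% lower. Gnptab, a subunit of the enzyme that makes the mannose 6-phosphate tag, rose with IL-1β from 11.1 to 15.5 mean FPKM (log2 fold change 0.44 ± 0.05, adjusted p = 1.2e-05) and was at 11.9 in co-culture. Gga2, an adaptor that carries tagged enzymes out of the Golgi, fell from 29.4 to 21.3 (adjusted p = 2.3e-05) and was at 26.1. Psap, the gene of the saposin precursor, rose from 326.9 to 373 (adjusted p = 0.00023).

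Other soluble lysosomal enzymes also changed in both directions. Of 32 hydrolase and lysosomal lipid-handling genes, 7 were higher and 12 lower with IL-1β (median log2 fold change -0.048, against -0.044 for all genes), where 20.5% of all genes were higher and 31.2% lower. In co-culture against IL-1β 8 were higher and 11 lower, or 5 higher after median-of-ratios scaling, where 33.3% of all genes were higher and 16.7% lower. Galns, a sulfatase that degrades keratan and chondroitin sulfate, fell from 8.88 to 5.52 mean FPKM (log2 fold change -0.6 ± 0.05, adjusted p = 1.4e-06) and was at 8.15 in co-culture. Prcp, a lysosomal carboxypeptidase, went from 27.2 to 19.98 and 27.4. Npc2, which hands on cholesterol, rose from 130 to 149.5 and was at 124.6. None of these 3 changed by as much as Ctsc or Ctsh on the log2 scale.

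The joint list of membrane proteins and of the proton pump that acidifies the lysosome leaned one way, though not in each gene. Of 24 tested genes, 12 were higher and 1 lower with IL-1β, with a median log2 fold change of 0.117 (all genes -0.044), and 14 were lower and 1 higher in co-culture against IL-1β, with a median of -0.112 (all genes 0.062). Of all genes 20.5% were higher and 31.2% lower in the first comparison, and 33.3% and 16.7% in the second. In 18 alternative settings the higher genes with IL-1β numbered 10 to 16, and the lower ones in co-culture 12 to 18. The pump subunit gene Atp6v1g1 rose from 216.4 ± 9.38 to 343.2 mean FPKM and was at 234.8 in co-culture (log2 fold changes 0.66 ± 0.04 and -0.55 ± 0.04, adjusted p = 2.8e-08 and 2.8e-07). Atp6v0e1 rose from 159.9 to 199.8 (adjusted p = 2.5e-05), and the membrane protein genes Cd63 and Lamp1 were at 1274 and 351.9 in control and 1433 and 338.3 with IL-1β. The lower gene with IL-1β was also a pump subunit, Atp6v1b2 (log2 fold change -0.28 ± 0.04, adjusted p = 5.1e-05). Of the membrane protein genes, Cd63, Lamp2 and Npc1 passed as higher with IL-1β, and Lamp1, Mcoln1, Ctns, Clcn7 and Ostm1 did not pass.

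**Figure D4:**
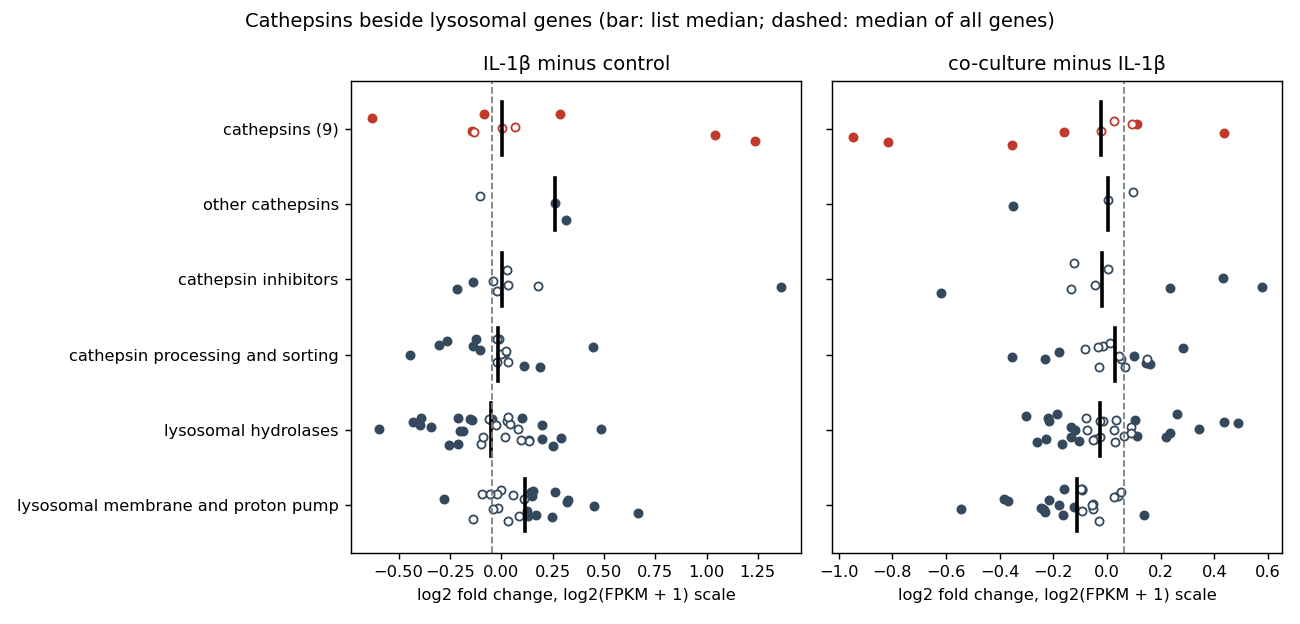
Log2 fold change (horizontal axes, log2(FPKM + 1) scale) of the 9 cathepsins and 5 lists of related genes with IL-1β (left) and in co-culture against IL-1β (right), 1 point per tested gene, filled where the limma adjusted p was under 0.05, with list medians as bars and the median of all genes dashed. The cathepsins spread from -0.63 to 1.24 with IL-1β, and the proton pump and membrane list has its median at 0.117 and then -0.112.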

How the data were processed

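Messenger RNA of rat synovial fibroblasts was sequenced in 9 libraries, grouped by their titles. The values are FPKM, computed by the authors and deposited with 2 decimals per the file headers. Aligner, quantifier and annotation: not given in the sources used here. The build was GRCm38, a mouse build, per the submitters' processing notes, whereas 93.4% of the row identifiers were found in the rat RefSeq table, so levels of different genes compare less well than 1 gene across libraries. No counts were used and the depth is unknown. To look for steps of whole reads, 453 genes with low values were selected, but no step was computed. FPKM sums were 679774 to 741810 per library. The precision rests on 3 libraries per group.

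Genes with a mean of at least 1 FPKM were kept, transformed as log2(FPKM + 1), which understates changes of low genes, and modelled over all 9 libraries by limma 3.58.1 (R 4.3.3), with trend and robust moderation, two-sided, with Benjamini-Hochberg adjustment over 11372 genes and a threshold of 0.05. The fit was tested on simulated data. Members, gene lists, motifs and the naming rule (all members and other cathepsins, and per list up to 2 genes of smallest p in each of the first 2 comparisons and 2 of highest FPKM) were chosen with earlier results of these data known. Genes named beyond the rule, after their values were seen, were Ptprc, C1qa, C1qc, Cd74, Cd163, Mrc1, Adgre1, Itgam, Csf1r, Spi1, Laptm5, Tyrobp, Fcer1g and Cst6. So were Itgb3, Atp6v1b2, Lamp2, Npc1, Mcoln1, Ctns, Clcn7 and Ostm1. Alternatives were other pseudocounts, filters, scalings and moderation, only the groups compared, a replicate block and leaving out each library. Protein sequences were not used here.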

Additional observations from a re-analysis of the deposited data

How the results depend on the processing

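The calls of Ctsc, Ctsh, Ctsb and Ctsl with IL-1β and in co-culture against IL-1β, and of Ctsa in co-culture against IL-1β and against control, held in direction and threshold under each of the 18 alternatives. The log2 fold change with IL-1β ranged from 1.21 to 1.39 for Ctsc, 0.98 to 1.09 for Ctsh, 0.165 to 0.34 for Ctsb and -0.78 to -0.58 for Ctsl. Over all members, comparisons and alternatives, 446 values kept direction and side of the threshold, 24 lost and 2 gained the call, and 11 reversed. The lost calls were those of Ctsd and Ctsk. The reversals were all of values that had not passed. In the main fit those values ran from a log2 fold change of -0.132 (Ctss with IL-1β) to 0.092 (Ctsz in co-culture against IL-1β). After quantile normalization they were -0.065 for Ctsa with IL-1β and -0.015 for Ctss in co-culture against IL-1β, and after median-of-ratios scaling -0.026 for the latter. The others came from leaving out 1 library at a time, which gave log2 fold changes of -0.012 to 0.037 for Ctsa and -0.285 to 0.003 for Ctss with IL-1β, -0.111 to 0.177 for Ctss and -0.009 to 0.142 for Ctsz in co-culture against IL-1β, and -0.186 to 0.016 for Ctss against control. The cause was not tested. Leaving out 1 library at a time, 4 to 6 members passed with IL-1β, 5 to 6 in co-culture against IL-1β and 4 to 5 against control. Over all genes, leaving out 1 library gave 5243 to 5809, 5014 to 5660 and 1662 to 2309 calls, against 5874, 5687 and 2307. Of 60 counts of list members in 1 direction, 27 moved by over 1.5 times under at least 1 alternative, most of them counts of 5 or fewer. In co-culture against IL-1β, lower hydrolase genes numbered 6 to 16, higher sorting genes 1 to 5 and lower inhibitor genes 1 to 4. With IL-1β, lower lysosomal control genes numbered 2 to 6. Same-numbered libraries of different groups had correlations of deviations from -0.046 to 0.189 and others -0.221 to 0.133, so the numbers were not taken as pairing. With the replicate block 6, 6 and 5 members and 5858, 5708 and 2227 genes passed in the 3 comparisons. Ctss is not tested under the filter of 5 FPKM.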

Other observations

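Genes that set the lysosomal programme and its turnover made up a list of 14 tested genes. With IL-1β 4 were higher and 5 lower, where 20.5% of all genes were higher and 31.2% lower. In co-culture against IL-1β 5 were lower by limma's adjusted p and 0 higher, where 33.3% of all genes were higher and 16.7% lower. Mitf, a transcription factor related to TFEB, rose from 10.06 ± 0.55 to 12.6 FPKM with IL-1β (log2 fold change 0.3 ± 0.06, limma adjusted p = 0.00084) and was at 10 FPKM in co-culture. Sqstm1, the autophagy receptor gene, fell from 231.6 ± 2.53 to 185 mean FPKM (adjusted p = 1.2e-06) and did not return in co-culture (178.5 mean FPKM, log2 fold change against IL-1β -0.05 ± 0.03, adjusted p = 0.14). Gpnmb, a lysosomal glycoprotein gene, fell from 139.8 ± 0.2 to 113.4 mean FPKM and was lower still in co-culture, at 105.8 (adjusted p = 0.0086 against IL-1β and 9.9e-07 against control). This differs in direction from Ctsl, which was higher in co-culture than with IL-1β alone. The difference between the genes was not tested.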
